A study of Mus musculus with 12 samples.

Results

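The 50 genes described here drive or mark the cell division cycle in mouse kidney. They run from the D-type cyclins that start it to the kinesins that end it. They were taken from a list of symbols, and all 50 were found in the count table of 35275 genes, 24483 of which had at least 1 read in some mouse. Kidneys of 6 months old mice on the C57BL/6J background were profiled by poly(A) RNA sequencing in 3 groups of 4 mice. WT mice were C57BL/6J with intact Pkd1 and Casp1. RC/RC mice were homozygous for the hypomorphic Pkd1 allele R3277C, a model of slowly progressing autosomal dominant polycystic kidney disease. RC/RC:Casp1KO mice carried the same Pkd1 alleles and were also homozygous for a deletion in Casp1, which encodes caspase-1, the protease of the inflammasome. That deletion was made with TALENs, was present in all tissues and came from a single line, Del3. The study used males and females in equal number, but the columns of the count table do not name the sex, so no value is given by sex. Mice are numbered 1 to 4 in the order of the table, and the number is only a name. Totals ran from 18019819 to 24869454 reads per mouse.

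In the textbook account, mitogens raise D-type cyclins, which with Cdk4 or Cdk6 phosphorylate the retinoblastoma protein and release E2F factors. E2F then turns on cyclin E and the genes of replication, the Mcm helicase is loaded on origins, and DNA is copied with the sliding clamp Pcna. Later the cyclin A and B partners of Cdk1, the Aurora and Polo kinases, the kinetochore and the spindle motors are made, largely under Foxm1 and the B-Myb complex, and carry the cell through mitosis. Most tubule cells of the adult kidney are at rest, and growth of the tubule epithelium belongs to the known course of polycystic kidney disease.

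The labels were checked first on the manipulated genes. Levels are given as CPM, the read count divided by the library's total, which is scaled by the TMM factor of edgeR. In WT the 4 mice had 2.05, 1.29, 1.31 and 1.41 CPM of Casp1, in RC/RC 3.33, 3.87, 4.24 and 2.62, and in RC/RC:Casp1KO 0.382, 0.667, 0.665 and 1.06. All 4 RC/RC:Casp1KO mice lay below all WT and all RC/RC mice. The log2 fold change of Casp1 between RC/RC:Casp1KO and RC/RC was -2.35 with an adjusted p of 0.00514, and the reads that remained can come from the parts of the gene the deletion spares. Levels of Pkd1 were 40.2, 42.3, 67.5 and 62.0 CPM in WT, 58.8, 67.4, 46.4 and 47.9 in RC/RC and 72.5, 70.5, 56.3 and 87.2 in RC/RC:Casp1KO mice 1 to 4. The Pkd1 groups overlapped, and since the R3277C allele is a point change that leaves the transcript in place, this count checks nothing. Markers of kidney tubule were abundant in every mouse: Slc34a1, the phosphate carrier of the proximal tubule, lay between 2048 and 6843 CPM, and Umod, the marker of the thick ascending limb, between 2370.1 and 5104 CPM.

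Some libraries stood apart from their group. RC/RC mouse 2 held 99.9 CPM of Adipoq and 564 CPM of Fabp4, genes of fat cells, against at most 11.6 and 95.6 CPM in any other mouse. RC/RC:Casp1KO mouse 4 held 59.0 CPM of Ptprc, which all leukocytes express, and 62.9 CPM of Lcn2, a marker of injured tubule, against at most 24.9 and 12.8 CPM in the other 3 mice of its group. RC/RC:Casp1KO mouse 3 had the lowest value of its group for 36 of the 50 cell cycle genes, and mouse 4 the highest for 31. In RC/RC, mouse 1 had the highest value for 34 of the 50 and mouse 2 for 14.

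The 50 genes differed widely in level. Per length (FPKM, the CPM divided by the gene length in kilobases), Ccnd1, the cyclin D1 gene, was highest in WT kidney with 51.4 ± 8.22 (SD, n = 4), and Cenpf, which encodes a large protein of the kinetochore and the nuclear matrix, was lowest with 0.0679 ± 0.0301 (SD, n = 4). Only Ccnd1, Cdk4, Pcna and Ccnd3 had a WT mean above 10 FPKM. Next in the order were Mcm7, Cdk2, Mcm6, Mcm2, Rrm1, Tk1, Ccnd2 and Tyms, between 6.13 and 3.54 FPKM. Members of the mitotic apparatus filled the lower end, with Cdk1 at 0.328, Mki67 at 0.356 and Top2a at 0.479 FPKM in WT. These low levels put the mitotic genes near the depth of the data: Ccnb1, for example, rested on 5 to 21 reads per WT mouse, while a count of 3 corresponds to 0.115 to 0.166 CPM depending on the library.

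**Figure D1:**
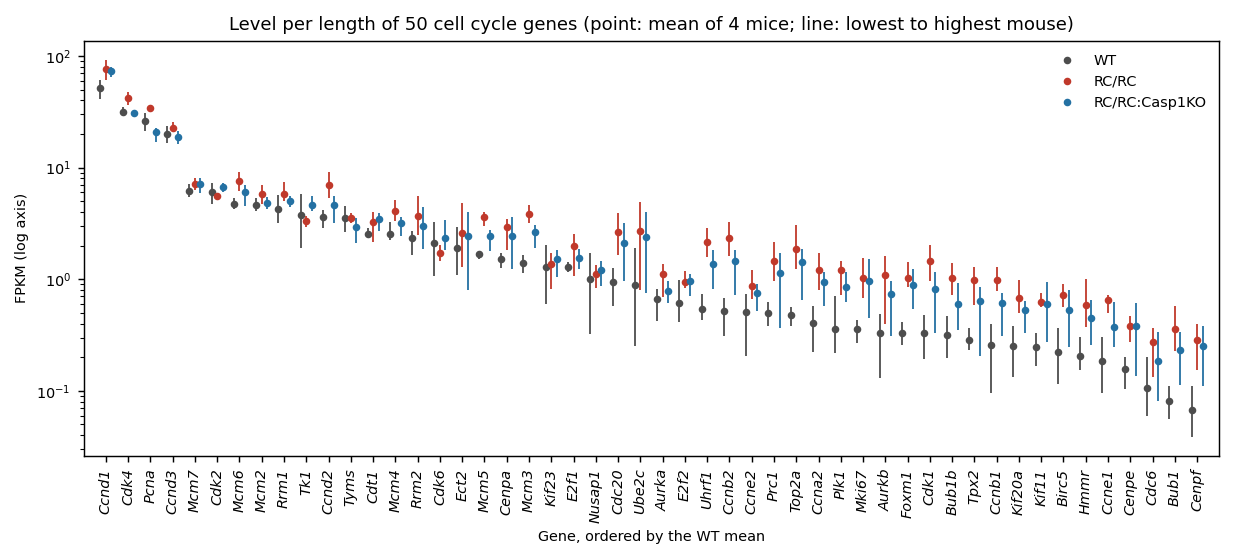
Level per length (FPKM, log axis) of the 50 cell cycle genes, ordered by their WT mean; points are means of 4 mice per group and lines run from the lowest to the highest mouse. Ccnd1 stood highest with 51.4 FPKM in WT and Cenpf lowest with 0.0679, and the distance between WT and the other groups was wider at the low end.

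The comparison of RC/RC with WT asks how kidneys with the Pkd1 allele differ from those without it. Cell cycle genes were higher in RC/RC kidneys: 28 of the 50 passed the test (edgeR quasi-likelihood, Benjamini-Hochberg adjusted p below 0.05 over 15243 genes), all 28 upwards. That is 56%, where 9.76% of all genes tested were called higher and 3.18% lower. The median log2 fold change was 1.18 over the 50 genes and -0.02 over all genes tested. Of the 50, 46 had a positive fold change. At an unadjusted p below 0.05, 35 were higher and none lower, where 17.3% of all genes were higher and 11.97% lower. DESeq2 called 31 higher and none lower, where it called 8.45% of all genes higher and 4.34% lower. In 29 all 4 RC/RC mice lay above all 4 WT mice, which was so for 12.6% of all genes, and none lay wholly below, which was so for 7.05%. In whole tissue, more dividing cells and more RNA per cell cannot be told apart. Leaving out single mice gave 21 to 31 called genes (21 without WT mouse 4, 22 without RC/RC mouse 2, 31 without RC/RC mouse 4), and 18 of the 28 were called in all 8 of these fits. In these fits 6.16% (without WT mouse 4) to 11.5% (without RC/RC mouse 4) of all genes were called higher.

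**Figure D2:**
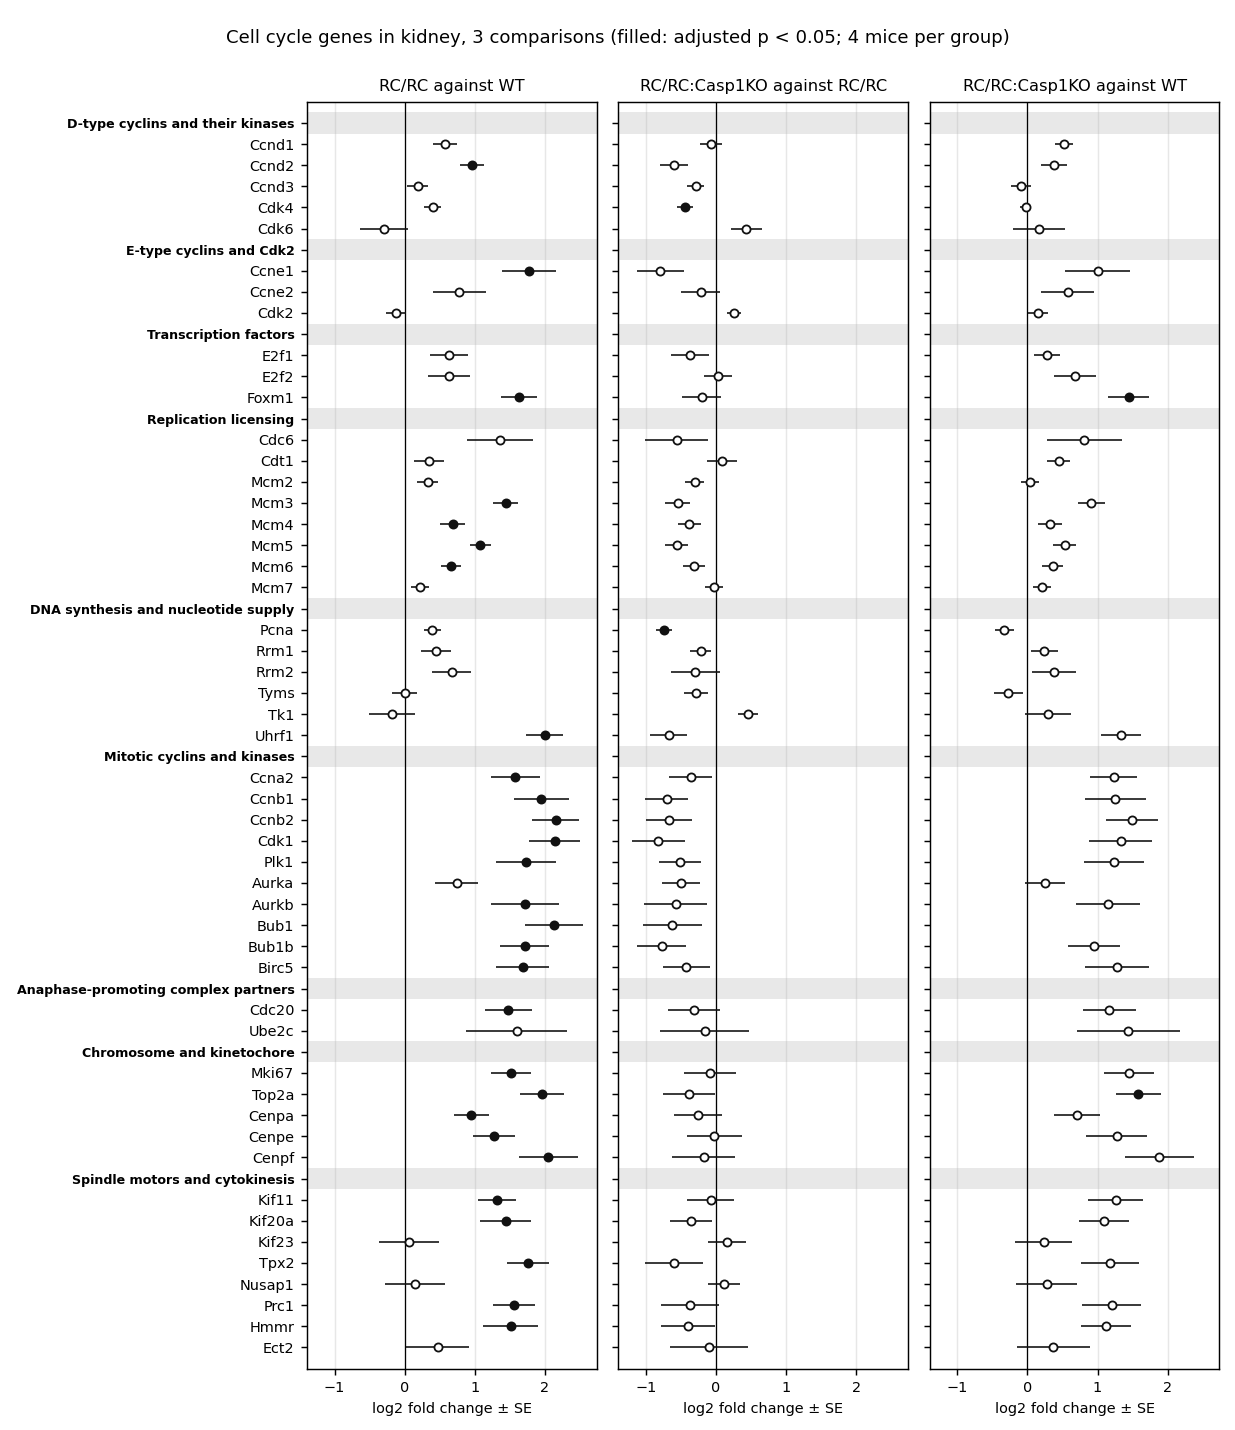
Log2 fold change ± SE of the 50 cell cycle genes in 3 comparisons, grouped by role; filled points had an adjusted p below 0.05 and Bub1 was not tested in RC/RC:Casp1KO against WT. In RC/RC against WT the 28 filled points all lie to the right, mostly among the mitotic genes, while 2 are filled in each of the other comparisons.

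The mitotic cyclins and kinases had the highest median of the role groups. Of these 10 genes 9 were called higher, all but Aurka, and their median log2 fold change was 1.73. The WT mice held 1.19, 1.38, 0.553 and 0.659 CPM of Cdk1, the RC/RC mice 4.70, 5.82, 3.49 and 2.79 and the RC/RC:Casp1KO mice 2.18, 3.34, 0.942 and 3.04. Cdk1 encodes the kinase that starts mitosis, and every RC/RC mouse lay above every WT mouse (log2 fold change 2.14 ± 0.36 SE, adjusted p = 0.0056). Ccnb1 was at 0.238, 0.714, 0.604 and 0.989 CPM in WT mice 1 to 4, 3.21, 2.65, 1.93 and 2.10 in RC/RC and 1.64, 1.86, 0.776 and 1.795 in RC/RC:Casp1KO. Its partner cyclin B1 was likewise separated between RC/RC and WT (log2 fold change 1.95 ± 0.39 SE, adjusted p = 0.0119). In WT the 4 mice had 0.476, 0.762, 0.956 and 1.04 CPM of Ccnb2, in RC/RC 5.05, 3.92, 3.01 and 2.49, and in RC/RC:Casp1KO 2.79, 2.48, 1.11 and 2.67. Ccnb2, the gene of cyclin B2, had the largest fold change of the 50 genes in this comparison (log2 fold change 2.16 ± 0.33 SE, adjusted p = 0.00362). Cyclin A2 (Ccna2, 1.58 ± 0.35), the Polo kinase Plk1 (1.74 ± 0.43), the spindle checkpoint kinases Bub1 (2.13 ± 0.42) and Bub1b (1.71 ± 0.35) and 2 subunits of the chromosomal passenger complex, the kinase Aurkb (1.72 ± 0.49) and survivin (Birc5, 1.68 ± 0.38), rose too on the log2 scale (± SE). Aurkb passed only narrowly (adjusted p = 0.0483), its groups overlapped by way of RC/RC mouse 4, and it was called in 1 of the 8 fits without a mouse. Plk1 was called in 2 of those 8, and WT mouse 4 stood above the other WT mice with 1.55 CPM. Aurka, the Aurora kinase of the spindle poles, had 0.75 ± 0.31 and did not pass (adjusted p = 0.145).

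All 5 genes of chromosome structure and the kinetochore were called higher. Levels of Mki67 were 2.72, 3.19, 4.07 and 4.38 CPM in WT, 15.6, 10.5, 6.82 and 8.27 in RC/RC and 7.37, 11.8, 4.55 and 15.2 in RC/RC:Casp1KO mice 1 to 4. Mki67 encodes Ki-67, the antigen used to stain dividing cells, and the RC/RC and WT ranges did not overlap (log2 fold change 1.52 ± 0.28 SE, adjusted p = 0.00842). The WT mice held 2.67, 2.00, 2.41 and 2.92 CPM of Top2a, the RC/RC mice 15.9, 10.01, 6.60 and 6.43 and the RC/RC:Casp1KO mice 7.56, 9.15, 3.38 and 9.81. Topoisomerase II alpha, which untangles sister chromatids, showed the same separation (log2 fold change 1.96 ± 0.31 SE, adjusted p = 0.0043). Cenpf was at 0.429, 0.666, 0.704 and 1.22 CPM in WT mice 1 to 4, 4.43, 4.18, 2.25 and 1.71 in RC/RC and 1.72, 4.00, 1.22 and 4.24 in RC/RC:Casp1KO. For Cenpf the gap between the groups was narrower, with the lowest RC/RC mouse at 1.71 and the highest WT mouse at 1.22 CPM (log2 fold change 2.05 ± 0.42 SE, adjusted p = 0.0131). The kinetochore motor Cenpe had 1.28 ± 0.29. The centromeric histone Cenpa had 0.95 ± 0.25 and was called in 1 of the 8 fits without a mouse.

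Of the 8 spindle and cytokinesis genes 5 were called higher. In WT the 4 mice had 1.29, 1.09, 1.01 and 1.60 CPM of Tpx2, in RC/RC 5.16, 5.56, 3.76 and 2.57, and in RC/RC:Casp1KO 3.32, 3.34, 0.887 and 3.68. Tpx2 activates Aurka on spindle microtubules, and RC/RC mice exceeded all WT mice (log2 fold change 1.77 ± 0.30 SE, adjusted p = 0.0056). Prc1, which bundles the central spindle, had 1.56 ± 0.29, and the spindle protein Hmmr 1.51 ± 0.39. The motors Kif11 and Kif20a had 1.32 ± 0.27 and 1.44 ± 0.36. Kif20a and Hmmr were called in 3 of the 8 fits without a mouse. The others were Kif23 (0.07 ± 0.43), Nusap1 (0.14 ± 0.43) and Ect2 (0.47 ± 0.44), none of which passed. Their WT mice were far apart: Kif23 lay at 2.05, 2.43, 6.94 and 6.31 CPM, Nusap1 at 2.67, 1.14, 4.28 and 6.03 and Ect2 at 9.20, 11.9, 4.48 and 5.28 in WT mice 1 to 4. Both partners of the anaphase-promoting complex had positive fold changes, but only its activator Cdc20 passed (log2 fold change 1.48 ± 0.34 SE, adjusted p = 0.0192). Ube2c, its ubiquitin-conjugating enzyme, did not (log2 fold change 1.60 ± 0.72 SE, adjusted p = 0.174), and its mice split within each group, with mice 1 and 2 higher than mice 3 and 4 in all 3 groups (2.48, 4.14, 0.553 and 0.612 CPM in WT). Kif23 split in the opposite way in WT only. By chi-square per degree of freedom over all genes, mice 1 and 2 were also closest to each other in WT (17.7, against 89.8 to 127 between the pairs) and mice 3 and 4 likewise (16.4). The same held in RC/RC:Casp1KO (15.7 and 31.8, against 67.1 to 93.4). In RC/RC mice 3 and 4 were close (37.2), but mice 1 and 2 (69.7) were not closer than mice 2 and 3 (67.6). What sets these pairs apart was not tested. The fits hold no term for them, so the spread between the pairs counts as error, also for Ube2c.

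Fewer genes of the earlier phases passed. Among the 8 licensing genes, Mcm3, Mcm4, Mcm5 and Mcm6 were called higher, subunits of the helicase that is loaded on origins. Levels of Mcm3 were 5.62, 4.57, 5.18 and 3.91 CPM in WT, 15.9, 13.8, 11.8 and 11.02 in RC/RC and 9.20, 9.87, 6.49 and 10.5 in RC/RC:Casp1KO mice 1 to 4. Mcm3 had the smallest adjusted p of the 50 genes (log2 fold change 1.45 ± 0.18 SE, adjusted p = 0.00132). The WT mice held 6.10, 5.86, 6.09 and 5.18 CPM of Mcm5, the RC/RC mice 13.6, 13.8, 11.5 and 10.2 and the RC/RC:Casp1KO mice 8.74, 9.39, 6.15 and 9.16. Mcm5 was separated as well (log2 fold change 1.08 ± 0.15 SE, adjusted p = 0.00238). Mcm6 had 0.66 ± 0.14 and Mcm4 0.69 ± 0.18, the latter called in 3 of the 8 fits without a mouse. Mcm2 was at 18.1, 13.7, 16.6 and 14.4 CPM in WT mice 1 to 4, 23.4, 20.1, 19.5 and 15.9 in RC/RC and 14.2, 16.3, 15.3 and 18.5 in RC/RC:Casp1KO. The Mcm2 ranges overlapped (log2 fold change 0.33 ± 0.15 SE, adjusted p = 0.175), and Mcm7 had 0.22 ± 0.13. Subunits of the same ring thus differed from 0.22 to 1.45 in their log2 fold changes, although differences between the subunits were not tested. The loading factors Cdc6 (1.36 ± 0.47) and Cdt1 (0.34 ± 0.21) did not pass.

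Of the 6 genes for DNA synthesis and its nucleotides only Uhrf1 passed, which carries DNA methylation over to the new strand. In WT the 4 mice had 2.67, 1.67, 1.56 and 1.88 CPM of Uhrf1, in RC/RC 10.4, 8.58, 6.55 and 5.70, and in RC/RC:Casp1KO 4.66, 5.39, 2.94 and 6.58. Every RC/RC mouse had at least 5.7 CPM and no WT mouse more than 2.67 (log2 fold change 2.00 ± 0.26 SE, adjusted p = 0.00184). Levels of Pcna were 41.4, 46.4, 38.0 and 32.4 CPM in WT, 49.5, 55.3, 53.0 and 50.3 in RC/RC and 31.9, 34.0, 25.6 and 33.8 in RC/RC:Casp1KO mice 1 to 4. Pcna, the sliding clamp, was higher in every RC/RC mouse than in every WT mouse but missed the threshold (log2 fold change 0.40 ± 0.12 SE, adjusted p = 0.0561). The ribonucleotide reductase subunits Rrm1 (0.45 ± 0.21) and Rrm2 (0.67 ± 0.28), thymidylate synthase Tyms (0.00 ± 0.18) and thymidine kinase Tk1 (-0.18 ± 0.33) did not pass either. For Rrm1 and Rrm2, as for Ube2c, mice 1 and 2 lay above mice 3 and 4 in all 3 groups.

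In the entry to the cycle, 1 of 5 genes of the cyclin D group passed. The WT mice held 23.7, 19.9, 21.4 and 16.5 CPM of Ccnd2, the RC/RC mice 37.4, 51.6, 39.3 and 30.5 and the RC/RC:Casp1KO mice 29.5, 26.5, 18.02 and 31.5. This was Ccnd2, cyclin D2 (log2 fold change 0.96 ± 0.17 SE, adjusted p = 0.00733). Ccnd1 was at 229.8, 188, 155 and 196 CPM in WT mice 1 to 4, 347, 227, 262 and 310.3 in RC/RC and 274, 297, 240.2 and 289 in RC/RC:Casp1KO. For Ccnd1 the highest WT mouse exceeded the lowest RC/RC mouse and the call was missed (log2 fold change 0.58 ± 0.17 SE, adjusted p = 0.0566). In WT the 4 mice had 72.3, 66.0, 62.8 and 59.7 CPM of Cdk4, in RC/RC 75.1, 97.1, 94.5 and 77.8, and in RC/RC:Casp1KO 61.1, 64.8, 64.3 and 65.1. Cdk4, the kinase partner, was separated between the groups but not called (log2 fold change 0.40 ± 0.12 SE, adjusted p = 0.0543). Levels of Ccnd3 were 89.5, 90.6, 63.6 and 64.2 CPM in WT, 82.9, 99.9, 87.2 and 79.9 in RC/RC and 82.2, 73.3, 68.8 and 63.2 in RC/RC:Casp1KO mice 1 to 4. Cyclin D3 overlapped throughout (log2 fold change 0.18 ± 0.15 SE, adjusted p = 0.435), and Cdk6 had -0.29 ± 0.34. The WT mice held 0.191, 0.428, 0.251 and 0.612 CPM of Ccne1, the RC/RC mice 1.45, 1.32, 1.40 and 0.986 and the RC/RC:Casp1KO mice 0.573, 0.667, 0.499 and 1.24. Of the cyclin E group Ccne1 passed (log2 fold change 1.78 ± 0.38 SE, adjusted p = 0.0153), resting on 4 to 13 reads per WT mouse, while Ccne2 (0.78 ± 0.38) and the kinase Cdk2 (-0.12 ± 0.14) did not. Foxm1 was at 1.38, 1.48, 1.81 and 1.13 CPM in WT mice 1 to 4, 6.31, 4.13, 3.87 and 3.73 in RC/RC and 4.54, 3.38, 2.38 and 5.39 in RC/RC:Casp1KO. Foxm1, the factor that turns on many mitotic genes, passed (log2 fold change 1.64 ± 0.26 SE, adjusted p = 0.00405). In WT the 4 mice had 3.34, 3.62, 3.17 and 3.91 CPM of E2f1, in RC/RC 6.61, 6.94, 5.26 and 2.96, and in RC/RC:Casp1KO 3.78, 4.62, 3.38 and 5.16. E2f1 was above WT in 3 RC/RC mice and below it in mouse 4 (log2 fold change 0.63 ± 0.27 SE, adjusted p = 0.153), and E2f2 had 0.63 ± 0.30. With DESeq2, with library size alone and with all 12 mice in the fit, Ccnd1, Cdk4 and Pcna passed the threshold as well.

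Since the promoters of many mitotic genes are known to share short elements, and 20 of the 25 members that act in mitosis were called higher, the promoters were read from RefSeq (GRCm38.p6, the patched release of the mm10 assembly that the submitters' notes name). Each ran from 250 bases before to 50 after a start site, and 41 of the 50 genes had one. The letters sought on both strands were TTTGAA, the cell cycle genes homology region (CHR), CCAAT, the box bound by NF-Y, and for E2F sites TTTCCCGC, TTTCGCGC, TTTGCCGC and TTTGGCGC. The CHR letters were in 16 of 21 mitotic members (76.2%), in 2 of 20 members of the earlier phases and in 20.2% of all 27025 genes with a promoter. The E2F letters were in 1 of 21 mitotic members (4.76%), in 9 of 20 earlier ones and in 2.6% of all genes. CCAAT was in 19 of 21 (90.5%), in 12 of 20 and in 41.1% of all genes. The CHR and CCAAT letters can share at most 1 base. These are counts of letters, not of bound sites.

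The 130 bases before the start site are shown for 5 mitotic genes that hold both CHR and CCAAT, of which Ube2c alone was not called, for Mcm6 as a licensing gene with E2F letters, and for Pcna and Cdk4, the genes called lower in RC/RC:Casp1KO. They are written 5′ to 3′ along the gene, and capitals mark the letters sought on either strand.
Cdk1, chr10:69352913-69353042, minus strand: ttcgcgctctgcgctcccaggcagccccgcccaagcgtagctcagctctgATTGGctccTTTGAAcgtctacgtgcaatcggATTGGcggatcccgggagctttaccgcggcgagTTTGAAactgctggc
Top2a, chr11:99024190-99024319, minus strand: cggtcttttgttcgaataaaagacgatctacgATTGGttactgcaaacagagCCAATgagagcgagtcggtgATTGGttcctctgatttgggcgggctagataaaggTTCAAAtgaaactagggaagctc
Cdc20, chr4:118437344-118437473, minus strand: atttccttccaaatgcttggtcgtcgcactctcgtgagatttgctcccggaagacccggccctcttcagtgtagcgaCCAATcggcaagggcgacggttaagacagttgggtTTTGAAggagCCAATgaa
Ube2c, chr2:164769799-164769928, plus strand: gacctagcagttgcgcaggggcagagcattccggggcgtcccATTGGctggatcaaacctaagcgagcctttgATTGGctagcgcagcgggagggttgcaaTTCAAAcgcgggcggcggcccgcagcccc
Kif11, chr19:37376252-37376381, plus strand: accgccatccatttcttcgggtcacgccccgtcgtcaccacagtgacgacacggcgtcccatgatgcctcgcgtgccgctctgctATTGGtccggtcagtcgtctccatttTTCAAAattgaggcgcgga
Mcm6, chr1:128359706-128359835, minus strand: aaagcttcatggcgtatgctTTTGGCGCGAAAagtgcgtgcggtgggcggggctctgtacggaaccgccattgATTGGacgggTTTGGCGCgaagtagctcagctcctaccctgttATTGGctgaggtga
Pcna, chr2:132253181-132253310, minus strand: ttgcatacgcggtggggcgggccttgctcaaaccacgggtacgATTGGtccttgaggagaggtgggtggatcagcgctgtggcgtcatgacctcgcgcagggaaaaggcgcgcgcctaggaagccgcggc
Cdk4, chr10:127063405-127063534, plus strand: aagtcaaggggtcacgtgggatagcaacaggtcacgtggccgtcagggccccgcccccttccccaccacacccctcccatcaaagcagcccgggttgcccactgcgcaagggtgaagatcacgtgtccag
In the first 5 the CHR nearest the start begins 15 to 29 bases before it, and a CCAAT box begins 26 to 35 bases farther upstream. Mcm6 has 3 E2F matches, of which the upper pair overlap on opposite strands, 2 CCAAT boxes and no CHR, Pcna a single CCAAT box, and the Cdk4 stretch holds none of the letters.

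The comparison of RC/RC:Casp1KO with RC/RC sets cystic kidneys without caspase-1 against cystic kidneys with it. All RC/RC:Casp1KO mice came from a single deletion line, so the loss of caspase-1 and other differences of that line cannot be told apart. Here 2 of the 50 genes were called lower, Pcna and Cdk4, and none higher. That is 4%, where 4.41% of 15428 genes were called lower and 7.23% higher. The share of all genes called lower was itself unsteady: it lay between 0.369% (without RC/RC:Casp1KO mouse 2) and 8.3% (without RC/RC mouse 1) when single mice were left out, and at 1.16% with library size alone. At an unadjusted p below 0.05, 11 of the 50 were lower and 2 higher, where 16.4% of all genes were lower and 15.3% higher. The fold change was negative for 43 of the 50, with a median of -0.34 against -0.03 over all genes. When single mice were left out, this median lay between -0.447 and -0.195. All 4 RC/RC:Casp1KO mice lay below all RC/RC mice for 5 genes (Pcna, Cdk4, Mcm3, Mcm5 and Ccnb1) and above for 2 (Tk1 and Cdk2), where 8.65% and 11.8% of all genes were so separated. Without single mice 1 or 2 of the 50 were called lower. DESeq2 called 5 lower (Pcna, Cdk4, Ccnd2, Mcm3 and Mcm5) and 1 higher (Tk1), where it called 5.9% of all genes lower and 7.36% higher.

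Pcna stood at 31.9, 34.0, 25.6 and 33.8 CPM in the 4 RC/RC:Casp1KO mice and between 49.5 and 55.3 in RC/RC (log2 fold change -0.74 ± 0.11 SE, adjusted p = 0.00691). The call held without any single mouse. A near copy of Pcna bears on this value: Pcna-ps2 (chr19:9283238-9284494, plus strand, coordinates of the count table) matches the Pcna transcript at 99.2% identity over 781 bases. It had 1 to 3 reads in each WT mouse and 2 to 4 in each RC/RC mouse, but 97, 76, 106 and 67 reads in the RC/RC:Casp1KO mice. Pcna-ps2 thus differed between RC/RC:Casp1KO and RC/RC (adjusted p = 0.00115), and no fold is given because the RC/RC counts are near the limit of detection. With the counts of Pcna and Pcna-ps2 summed, an analysis added after the data were seen, the log2 fold change was -0.57 ± 0.09 (adjusted p = 0.00959). In 3 of the 4 RC/RC:Casp1KO mice 8.35% to 10.4% of the summed reads were counted on Pcna-ps2, and in mouse 3 18.7%. How reads that match both places equally were counted is not given in the sources used here, and their part in the result was not tested. Whether the Pcna-ps2 reads come from a difference of the Del3 line was not tested either.

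Cdk4 lay between 61.1 and 65.1 CPM in the RC/RC:Casp1KO mice and between 75.1 and 97.1 in RC/RC (log2 fold change -0.44 ± 0.11 SE, adjusted p = 0.0359). The call was lost in 6 of the 8 fits without a mouse (adjusted p 0.0634 to 0.0976) and with library size alone (0.0661). Cdk4 shares 604 bases with Tspan31 on the opposite strand, which has 62.8% as many reads. Tspan31 itself differed by -0.11 ± 0.11 (adjusted p = 0.535). Whether strand was used in counting is not given in the sources used here, and 10 of the 50 genes overlap an opposite-strand gene with at least 5% of their reads: Ccna2, Ccnd1, Ccnd3, Ccne2, Cdc20, Cdk4, Kif20a, Mcm7, Nusap1 and Tk1. Aurka and Prc1 share transcript sequence with their neighbours Fam210b and Rccd1 in a later annotation, and the counts of all 12 genes are uncertain to that extent. Near copies elsewhere were also found for Ccnb1, Ccnd3, Cdc6, Mcm7, Rrm2 and Uhrf1. Those of them in the count table held 0 to 4 reads each over all mice. The copies of Mcm7 and Rrm2 and a copy of Ccnb1 were not in it. Whether reads of these 6 genes were lost to copies was not tested.

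The mitotic genes, which made up most of the calls between RC/RC and WT, did not pass between RC/RC:Casp1KO and RC/RC. The median over the 10 mitotic cyclins and kinases was -0.60, and all 10 fold changes were negative. Cdk1 had -0.82 ± 0.38 (adjusted p = 0.17), Ccnb1 -0.71 ± 0.31 and Ccnb2 -0.68 ± 0.33. For the 5 chromosome and kinetochore genes the median was -0.18. Mki67 gave -0.09 ± 0.37, with RC/RC:Casp1KO mice 1, 2 and 4 at 7.37, 11.8 and 15.2 CPM inside the RC/RC range and mouse 3 at 4.55 below it. Top2a gave -0.39 ± 0.37 and Foxm1 -0.21 ± 0.28. With standard errors near 0.3 to 0.4, a log2 difference of this size could not be told from none in these genes. Without single mice Top2a ran from -0.54 to -0.060 and Foxm1 from -0.39 to -0.017. Licensing genes had a median of -0.35, with Mcm3 at -0.55 ± 0.18 (adjusted p = 0.072) and Mcm5 at -0.56 ± 0.17 (adjusted p = 0.0579). Ccnd2 gave -0.60 ± 0.20 and Ccnd1 -0.07 ± 0.15, with all 4 RC/RC:Casp1KO values of Ccnd1 inside the RC/RC range. The positive side was made up of Tk1 (0.46 ± 0.14, adjusted p = 0.0652), Cdk6, Cdk2, Kif23, Nusap1, Cdt1 and E2f2, between 0.03 and 0.46.

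**Figure D3:**
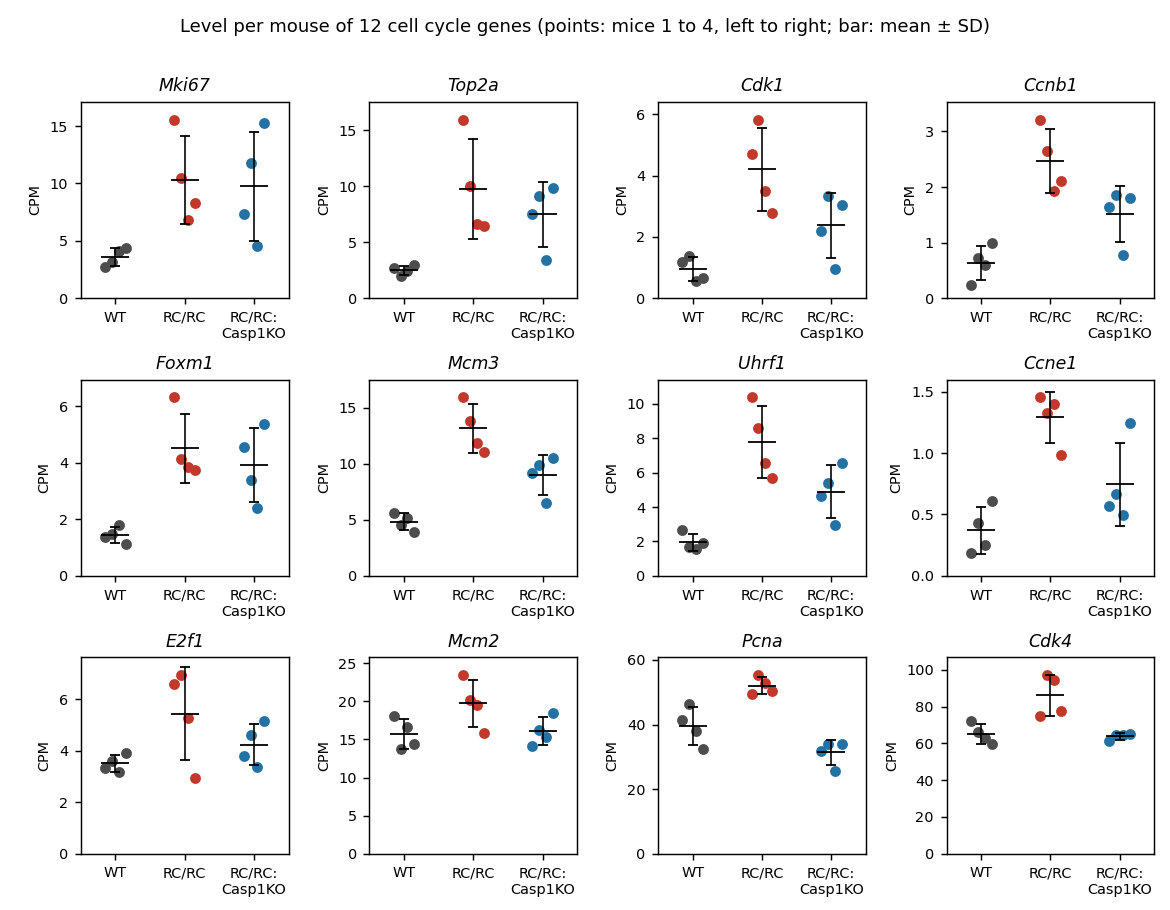
Level (CPM) of 12 cell cycle genes in each mouse; points are mice 1 to 4 from left to right in each group and bars give the mean ± SD. Cdk1, Top2a and Mcm3 separate RC/RC from WT, and RC/RC:Casp1KO mouse 3 often falls near WT (Top2a 3.38, Cdk1 0.942 CPM), while Pcna and Cdk4 are lower in all 4 RC/RC:Casp1KO mice than in RC/RC.

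RC/RC:Casp1KO was also set against WT, with the same mice as in the comparisons above, so the 3 comparisons are not independent. Of 49 genes tested (Bub1 was too low), 2 were called higher, Top2a (log2 fold change 1.58 ± 0.32 SE, adjusted p = 0.0449) and Foxm1 (log2 fold change 1.44 ± 0.29 SE, adjusted p = 0.0454), and none lower. That is 4.08%, where 1.13% of 15346 genes were called higher and 0.893% lower. The fold change was positive for 45 of 49, with a median of 0.71 against 0.01 over all genes. At an unadjusted p below 0.05, 25 were higher and Pcna alone was lower, where 11.8% of all genes were higher and 9.99% lower. The Pcna value was -0.33 ± 0.13 and became -0.16 ± 0.12 (adjusted p = 0.446) with the reads of Pcna-ps2 summed in. In 9 genes all RC/RC:Casp1KO mice lay above all WT mice, which was so for 7.41% of all genes, and in none below, which was so for 6.5%. Both calls depended on the set of mice: without RC/RC:Casp1KO mouse 3, 10 genes were called, and without any other single mouse none. Without RC/RC:Casp1KO mouse 3, 1.95% of all genes were called higher. DESeq2 called 11 of the cell cycle genes higher and none lower, where it called 3.35% of all genes higher and 2.46% lower. Set side by side, the median log2 fold change was 1.18 for RC/RC against WT and 0.71 for RC/RC:Casp1KO against WT. Cdk4 was at -0.03 ± 0.08 and Ccnd3 at -0.10 ± 0.15 against WT, and both turned positive with library size alone. Ccnd1 remained at 0.52 ± 0.13 (adjusted p = 0.0858), with every RC/RC:Casp1KO mouse above every WT mouse.

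Another 113 genes of the cell cycle were read as a wider view. In RC/RC against WT 109 were tested and 35 (32.1%, against 9.76% of all genes) were called higher and none lower, with a median of 0.42. The mitotic ones again led, with 23 of 37 called. Esco2, which establishes sister chromatid cohesion (log2 fold change 2.00 ± 0.28 SE, adjusted p = 0.00251), and the kinetochore gene Ndc80 (log2 fold change 1.92 ± 0.31 SE, adjusted p = 0.00416) had the smallest adjusted p among them. Of 37 genes of origins and the replication fork 4 (10.8%) were called (Gins2, Pole, Lig1 and Chaf1b), near the share of all genes. Of 12 genes of checkpoints and Cdk1 control 3 (25%) were called (Chek1, Cks1b and Mad2l1). Of 16 genes of the Rb, E2F and DREAM group 2 (12.5%) were called, also near that share, the atypical repressors E2f7 and E2f8. Among 7 Cdk inhibitors 3 were called higher. Cdkn2a, the gene of p16 and Arf, had 0, 2, 2 and 2 reads in the WT mice, below the level of 3 reads, and 0.879, 1.16, 2.36 and 0.686 CPM in RC/RC. Cdkn2b, which encodes p15, went from 2.19, 2.24, 3.52 and 1.55 CPM in WT to 6.50, 10.1, 7.03 and 4.29 in RC/RC (log2 fold change 1.55 ± 0.32 SE, adjusted p = 0.0132). Cdkn1a, the p21 gene, overlapped between the groups (log2 fold change 0.16 ± 0.33 SE, adjusted p = 0.778).

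Between RC/RC:Casp1KO and RC/RC 3 of 110 of these genes (2.73%) were called lower and none higher, where 4.41% and 7.23% of all genes were. Cdkn2b was at 2.60, 2.67, 3.38 and 2.53 CPM (log2 fold change -1.33 ± 0.26 SE, adjusted p = 0.0179). Mad2l1, a spindle checkpoint gene, lay between 3.62 and 4.93 CPM against 5.62 to 7.36 in RC/RC (log2 fold change -0.64 ± 0.17 SE, adjusted p = 0.0422). Cdkn1a was at 8.02, 7.29, 5.38 and 14.3 CPM against 17.4, 28.6, 18.2 and 13.2 in RC/RC (log2 fold change -1.15 ± 0.31 SE, adjusted p = 0.0446), with RC/RC:Casp1KO mouse 4 above the lowest RC/RC mouse. When single mice were left out, the call of Cdkn2b held in 5 of 8 fits, that of Cdkn1a in 3 (adjusted p 0.0173 to 0.119) and that of Mad2l1 in 2 (0.0385 to 0.121). In RC/RC:Casp1KO against WT 102 were tested, and Stil (log2 fold change 1.93 ± 0.33 SE, adjusted p = 0.0253), a centriole gene, and Ckap2l (log2 fold change 1.92 ± 0.39 SE, adjusted p = 0.0474), a spindle gene, were called higher and Pttg1, the securin gene, lower (log2 fold change -0.54 ± 0.10 SE, adjusted p = 0.0331). That is 1.96% higher and 0.98% lower, where 1.13% and 0.893% of all genes were called. Stil and Ckap2l were each called in 1 of the 8 fits without a mouse, the one without RC/RC:Casp1KO mouse 3, and Pttg1 in 3 of them.

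Markers of other cell types moved in the same mice. Among all genes tested, 9.76% were called higher and 3.18% lower in RC/RC than in WT. Between RC/RC:Casp1KO and RC/RC these shares were 7.23% and 4.41%, and between RC/RC:Casp1KO and WT 1.13% and 0.893%. Of 16 leukocyte markers 13 (81.25%) were called higher in RC/RC than in WT and none lower. Of these 16, 1 (6.25%) was lower in RC/RC:Casp1KO than in RC/RC, near the share of all genes. Their summed level was 119 to 145 CPM in WT, 271 to 386 in RC/RC and 229.8, 223, 186 and 379.7 in the 4 RC/RC:Casp1KO mice. Csf1r, the receptor of macrophage growth factor, was the most abundant of them in WT (62.2 to 79.2 CPM). All 6 fibroblast and pericyte markers were called higher in RC/RC, and 4 were called lower in RC/RC:Casp1KO than in RC/RC (Col1a1, Col1a2, Col3a1 and Dcn). Their sum was 217 to 307 CPM in WT, 811 to 1887 in RC/RC and 319, 463, 308 and 722 in RC/RC:Casp1KO. Col1a2 led this list in WT with 60.2 to 82.0 CPM, and Col3a1 in RC/RC with 208 to 543. Of 7 markers of injured or cyst-lining epithelium 6 were higher in RC/RC and 2 lower in RC/RC:Casp1KO than in RC/RC (Krt8 and Krt19), with Krt8 the most abundant at 89.2 to 126 CPM in WT. None of these lists had a gene at 0 in any mouse.

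Of 11 tubule markers 3 were called lower in RC/RC than in WT (Cubn, Slc12a3 and Calb1), and 3 were called higher in RC/RC:Casp1KO than in RC/RC (Lrp2, Cubn and Slc12a3). Their sum was 14804 to 18026 CPM in WT, 7327 to 12075 in RC/RC and 13896 to 16978 in RC/RC:Casp1KO. Of 4 plasma cell markers 3 were higher in RC/RC, led by Jchain, and the fourth, Tnfrsf17, was too low to test and at 0 in RC/RC:Casp1KO mouse 1. Of the 3 tested, 1 was called lower in RC/RC:Casp1KO than in RC/RC, and 2 were called higher in RC/RC:Casp1KO than in WT. The 3 erythroid markers tested were called lower than in WT both in RC/RC and in RC/RC:Casp1KO. None of the 4 endothelial markers was called, and 1 of 3 glomerular markers, Nphs1, was lower in RC/RC. Of the 3 adipocyte markers Adipoq and Plin1 were at 0 in several mice and none was called. Without RC/RC mouse 2, the mouse with adipocyte genes, 22 of the 50 cell cycle genes were called higher in RC/RC, where 6.45% of all genes were. Without RC/RC:Casp1KO mouse 4, the mouse with high Ptprc and Lcn2, Pcna and Ccne1 were called lower in RC/RC:Casp1KO than in RC/RC, where 4.42% of all genes were. The part of other cell types in the levels of the cell cycle genes was not tested.

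**Figure D4:**
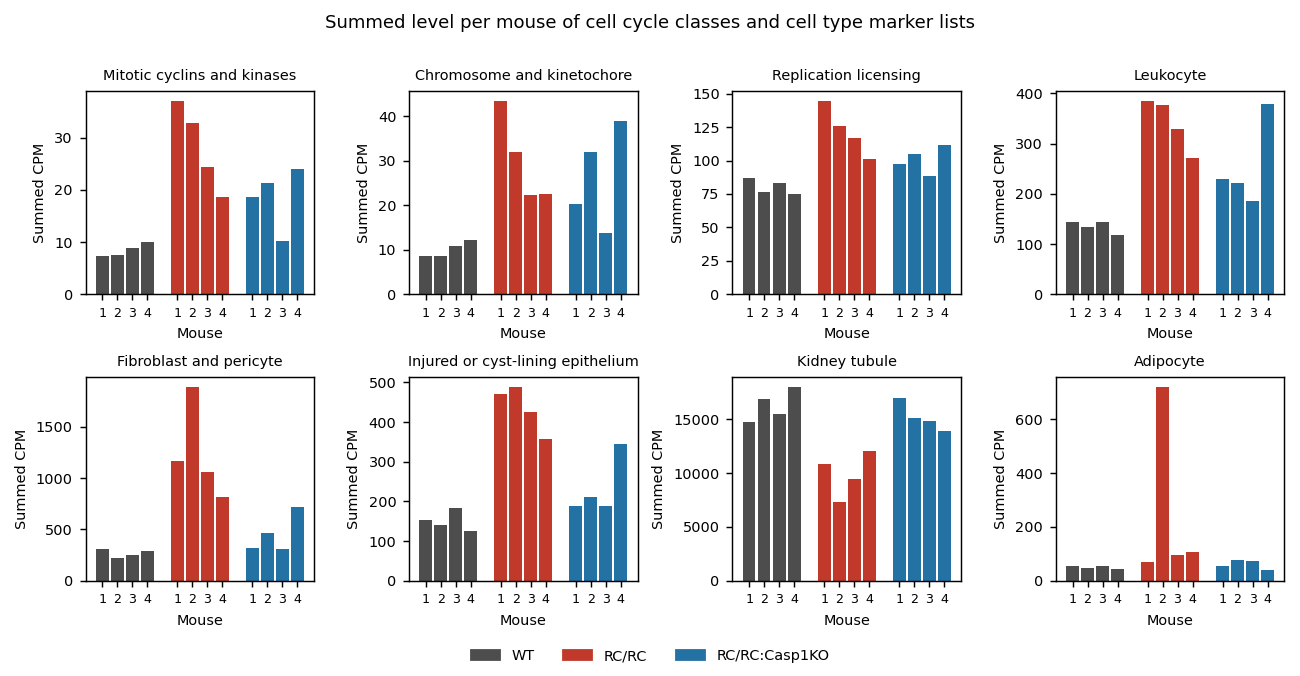
Summed level (CPM) of 3 classes of cell cycle genes and 5 lists of cell type markers in each mouse; each bar is 1 mouse and colours give the groups. The leukocyte, fibroblast and injury lists are higher in RC/RC than in WT together with the mitotic genes, RC/RC:Casp1KO mouse 4 stands above its group in these 3 lists, and RC/RC mouse 2 has 719.9 CPM of adipocyte genes.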

How the data were processed

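The deposited table held read counts per gene, made by the authors from poly(A) libraries of whole kidney. The submitters' processing notes name CASAVA 1.8, STAR and the mm10 assembly, and the counting tool, the annotation and the use of strand are not given in the sources used here. Columns of FPKM and of the authors' own comparisons (fold changes and p-values) were not used. Column names gave the group but no replicate number, and 4 mice per group entered each comparison.

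Genes passing filterByExpr were tested in each pair of groups (8 mice) with edgeR 4.0.16 in R 4.3.3 (TMM, quasi-likelihood test), with Benjamini-Hochberg adjustment over all genes tested, and were called at an adjusted p below 0.05. P-values measure the spread between these mice. In data simulated for RC/RC against WT on 15243 genes, 86 of 100 genes changed 4-fold and 46 of 100 changed 2-fold were recovered, with 6 false calls, where DESeq2 recovered 90 and 70 with 49 false calls. The simulation changed only 200 genes and drew each mouse independently. In the data 1971 genes were called and some mice of a group lay closer together, so these rates need not hold there. DESeq2 1.42.0, other scalings, filters and a fit of all 12 mice were alternatives, as was omitting single mice.

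The 50 genes and the other lists were chosen with earlier results of these data known. All 50 are named by role. Every mouse is given for the called genes, at most the 8 of lowest adjusted p per comparison, for the highest and lowest FPKM and for 12 set genes. Of the other cell cycle genes, the 3 of lowest adjusted p per comparison and Cdkn1a were named by rule, and those named behind small counts after their values were seen. Near copies were sought with BLAST+ 2.17.0 (at least 95% identity over 400 bases), in a set of transcripts from another build, from which no coordinate was taken. Promoters came from RefSeq (GRCm38.p6). A count of 3 per library was taken as the limit of detection, which covers counting error only.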

Additional observations from a re-analysis of the deposited data

Results flagged for a closer look

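In groups of 4 mice, the gap between an extreme mouse and its nearest neighbour was compared with the range of the group, and 7 of 153 gaps exceeded Dixon's 95% critical value, where chance gives about 1 in 20. The number of flags is thus near what chance gives. RC/RC:Casp1KO mouse 3 was low for 2 genes of the mitotic spindle: Tpx2 was at 0.887 CPM against 3.32 to 3.68 in the other 3 mice, and Kif20a at 1.16 against 2.10 to 2.26. RC/RC mouse 1 was high for 2 transcription factors: E2f2 was at 5.62 CPM against 3.94 to 4.13, and Foxm1 at 6.31 against 3.73 to 4.13. RC/RC:Casp1KO mouse 4 was high for Cdk6, with 12.8 CPM against 6.87 to 7.76. Among the WT mice, Mcm4 stood at 11.7 CPM in mouse 1 against 8.10 to 8.47, and Plk1 at 1.55 CPM in mouse 4 against 0.476 to 0.604.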

How the results depend on the processing

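No paired analysis was possible because the columns of the count table carry no replicate numbers. In RC/RC against WT, the count of cell cycle genes called higher stayed between 21 and 31 without single mice and 13 of the 28 were called under all 14 alternatives. The 5 others of the 18 called in all 8 fits without a mouse (Birc5, Bub1, Ccnb1, Ccne1 and Cenpf) were removed by the filter of 10 counts and were called under every alternative that kept them. All genes called went from 1971 to 3027 with DESeq2 and to 1162 (without WT mouse 4) to 2440 (without RC/RC mouse 4), and the median of the cell cycle genes fell from 1.18 to 0.80 where at least 10 counts in every mouse were required, which leaves 43 of the 50. In RC/RC:Casp1KO against RC/RC, all genes called (1797) became 3172 with DESeq2, 993 with library size alone and 438 (without RC/RC mouse 3) to 2789 (without RC/RC mouse 1). Cell cycle genes called there were 5 lower and 1 higher with DESeq2, 1 lower with library size alone, and 1 to 2 lower without single mice. Of all genes, 5.9% were called lower and 7.36% higher with DESeq2, and 1.16% lower with library size alone. In RC/RC:Casp1KO against WT, all genes called (311) became 1387 with DESeq2, 167 with at least 10 counts in every mouse and 108 (without WT mouse 4) to 547 (without RC/RC:Casp1KO mouse 3). Cell cycle genes called higher there were 11 with DESeq2, 4 with library size alone, 1 with at least 10 counts in every mouse, 4 with all 12 mice in the fit and 0 to 10 without single mice. Of all genes, 3.35% were called higher with DESeq2 and 1.83% with library size alone. The filter of 10 counts gave 0.571%, the fit of 12 mice 1.54% and the fits without single mice 0.366% to 1.95%. Library size alone moved the median of all genes in this comparison from 0.01 to 0.14, and turned Ccnd3 to 0.037 and Cdk4 to 0.10. It also raised the share of calls that were higher from 75.4% to 86.1% in RC/RC against WT, from 62.1% to 82.0% in RC/RC:Casp1KO against RC/RC and from 56.0% to 79.8% in RC/RC:Casp1KO against WT, where the fit of 12 mice gave 67.9%. In RC/RC:Casp1KO against RC/RC, leaving out single mice moved this share as far, to between 51.1% (without RC/RC:Casp1KO mouse 4) and 86.96% (without RC/RC:Casp1KO mouse 1).

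Fold changes were followed without single mice for 28 named genes, 19 of them among the 50. Among the 28, the direction changed only for genes not called in that comparison: Cdkn1a in RC/RC against WT (-0.11 to 0.42), Mki67 (-0.38 to 0.17), Ccnd1 (-0.14 to 0.018), Cenpf (-0.44 to 0.063), Stil (-0.21 to 0.078) and Ckap2l (-0.22 to 0.30) in RC/RC:Casp1KO against RC/RC, and Cdk4 (-0.069 to 0.025) and Mcm2 (-0.040 to 0.11) in RC/RC:Casp1KO against WT. With the near copy summed, Pcna kept its side of the threshold in all 3 comparisons, at -0.16 in place of -0.33 against WT. Of the calls lost, Cdkn1a (0.0813) and Mad2l1 (0.0791) in RC/RC:Casp1KO against RC/RC and Pttg1 (0.0992) against WT had adjusted p above the threshold with library size alone. The causes of these changes were not tested. At 18019819 to 24869454 reads per mouse, mitotic genes with a few reads in WT, such as Bub1 (4 to 8), limit what can be seen.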

Other observations

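In the summed CPM of the 50 cell cycle genes, the WT mice ranged from 550.7 to 659.8, the RC/RC mice from 809 to 1007 and the RC/RC:Casp1KO mice from 634 to 807, so that all RC/RC mice lay above all others. Ccnd1 alone made up the largest part of these sums (155 to 347 CPM), which therefore say little about mitotic genes. Cdkn2a, with at most 2 reads in any WT mouse, reached 1.89 CPM in RC/RC:Casp1KO mouse 4 against 0.191 to 0.222 CPM in the other 3 mice of that group. This is the same mouse that had the highest Ptprc, Havcr1 and Lcn2 of its group, with 42.5 CPM of Havcr1, and whether these values are linked was not tested.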
